A study of Saccharomyces cerevisiae with 6 samples.

Results

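The aminoacyl-tRNA synthetase genes of budding yeast were described as 2 lists, 19 genes of cytosolic enzymes and 13 genes of mitochondrial enzymes, chosen by name and together 32 of the 5449 genes with a probe set. Each of the 32 was read by 1 probe set, and none of these carries the suffix that marks a set able to cross-hybridize. The arrays came from Saccharomyces cerevisiae VTT C-10883, a single strain, grown without oxygen in chemostats, which are continuous cultures fed with fresh medium. In 3 biological replicates the medium was changed stepwise to one holding the inhibitors hydroxymethylfurfural (HMF) and furfural, and 3 biological replicates received no inhibitors. Both groups share the strain and the lack of oxygen. The labels state neither the inhibitor doses nor how long after the change or at which dilution rate cells were taken.

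An aminoacyl-tRNA synthetase joins an amino acid to the tRNAs that carry its anticodons, so that the ribosome adds the right residue at each codon. Yeast translates in the cytosol and again inside mitochondria, where a few membrane proteins of the respiratory chain and ATP synthase are made. For many amino acids a cytosolic and a mitochondrial enzyme are encoded by separate nuclear genes, while ALA1, GRS1, HTS1 and VAS1 each supply both compartments from a single gene. HMF and furfural are aldehydes formed when the sugars of plant biomass break down, and they slow the growth of fermenting yeast.

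All 32 genes lay above the background of the fission yeast probe sets on all 6 arrays, a level close to the floor of the signal. On the log2 scale the median within-group SD of all genes was 0.06, and the number of arrays limits the precision. Array medians over the genes lay between 7.46 and 7.48. Medians over all probe sets were lower with inhibitors, at 3.208 to 3.315, than without, at 3.417 to 3.436. A signal is a level relative to the other RNA on the array, and a change in all cells of a culture cannot be told apart from a change in some of them.

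With inhibitors, changes of the synthetase genes were small, and falls outnumbered rises. In the mitochondrial list 6 of 13 genes fell and 0 rose, and in the cytosolic list 5 of 19 fell and 1 rose, at an adjusted p under 0.05 in limma with Benjamini-Hochberg adjustment over all genes (the meaning of called, fell and rose throughout). Over all genes 22.3% fell and 19.9% rose, together 42.2%, so the 12 called synthetases, 37.5% of 32, lie near the background. The median log2 fold change was -0.10 in the mitochondrial list and -0.01 in the cytosolic list, against -0.01 over all genes. No test of the lists was made, since their members were chosen with results of these data known. At an unadjusted p under 0.05, limma gave 0 mitochondrial genes higher and 6 lower, and 3 cytosolic genes higher and 6 lower. Over all 5449 genes the same threshold gave 1320 higher and 1468 lower.

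The count of falls changed with the arrays used. In the mitochondrial list it was 3 without inhibitor replicate 2 or no-inhibitor replicate 1. In the cytosolic list it was 3 without inhibitor replicate 1 or 3, or no-inhibitor replicate 1 or 3. Over all genes the count of falls also dropped, from 1214 with every array to between 868 and 1117 when an array was left out. It was 901 without inhibitor replicate 2 and 868 without no-inhibitor replicate 1. A lower count was therefore not particular to the synthetases. The single cytosolic rise, SES1, was not called without inhibitor replicate 2 (0 genes called higher) or 3, where FRS2 was called higher instead. Medians of the 2 lists kept their order, mitochondrial below cytosolic, in every alternative. The mitochondrial median stayed negative, between -0.137 and -0.076. The cytosolic median took either sign, at -0.048 without no-inhibitor replicate 2, 0.035 without no-inhibitor replicate 3 and 0.032 under array weights.

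**Figure D1:**
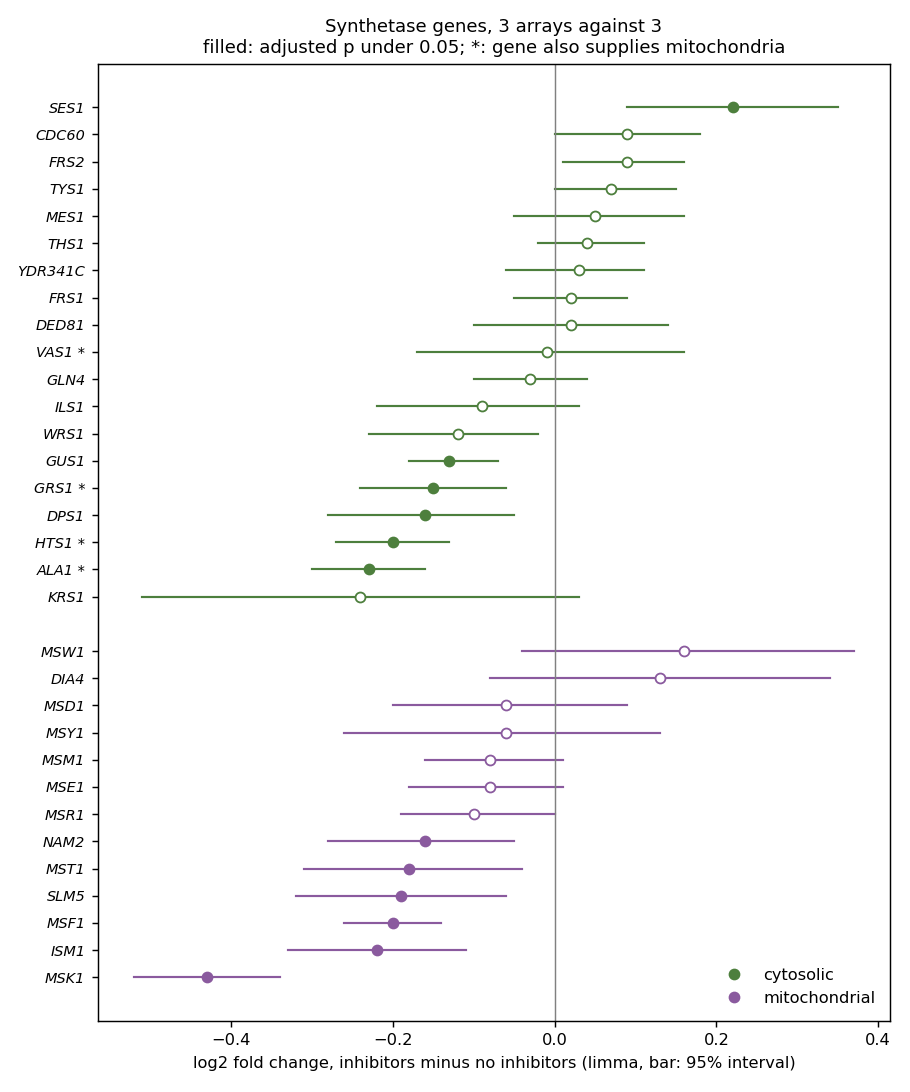
Log2 fold change (inhibitors minus no inhibitors, horizontal axis) of each synthetase gene with its 95% interval from limma, cytosolic list above and mitochondrial list below. Filled points passed an adjusted p of 0.05 and stars mark genes listed as supplying both compartments. Of 13 mitochondrial points 11 lie left of 0, against 10 of 19 cytosolic ones.

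The lysine enzyme of mitochondria, MSK1, changed most among the 32 genes. In yeast its precursor is also needed to import a cytosolic lysine tRNA into mitochondria. MSK1 (YNL073W) had log2 signals of 6.82, 6.77 and 6.72 with inhibitors, against 7.24, 7.16 and 7.19 without. The groups did not overlap, and the gap between the nearest arrays was 0.344. MSK1 fell by 0.43 as a log2 fold change, or 1.35-fold (SE 0.04, 95% interval -0.52 to -0.34, adjusted p = 0.00101 in limma). Of all genes, 8.79% had a larger log2 fold change in size. Its cytosolic counterpart KRS1 had 6.20, 6.54 and 6.42 with inhibitors, against 6.57, 6.54 and 6.76 without. These groups met at 6.54, and the arrays were uneven (SE 0.11). The log2 fold change of -0.24 did not pass the test (95% interval -0.51 to 0.03, adjusted p = 0.126 in limma). KRS1 was the dimmest gene of the cytosolic list and lay below MSK1 in both groups, and how well its probe set responds was not tested.

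MSF1 (YPR047W), which charges phenylalanine in mitochondria, had tight values of 6.47, 6.44 and 6.44 with inhibitors, against 6.65, 6.68 and 6.62 without. It fell by 0.20 (SE 0.02, adjusted p = 0.0026 in limma), and the groups did not overlap. Cytosolic phenylalanyl-tRNA synthetase is built from the subunits of FRS1 and FRS2. FRS1 had 10.58, 10.60 and 10.59 with inhibitors, against 10.57, 10.52 and 10.61 without, so its groups overlapped. FRS2 had 9.64, 9.68 and 9.60 with inhibitors, against 9.58, 9.54 and 9.54 without, a log2 fold change of 0.09 that was not called (95% interval 0.01 to 0.16, adjusted p = 0.0644 in limma). The FRS2 value was called without inhibitor replicate 3 (adjusted p = 0.0472) and under quantile normalization (adjusted p = 0.0142).

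ISM1 (YPL040C), the mitochondrial isoleucine enzyme, had 6.25, 6.23 and 6.32 with inhibitors, against 6.51, 6.55 and 6.41 without. All 3 inhibitor arrays lay below all 3 others, and ISM1 fell by 0.22 (SE 0.04, adjusted p = 0.0125 in limma). ILS1, which makes isoleucyl-tRNA in the cytosol, had 11.24, 11.31 and 11.22 with inhibitors, against 11.31, 11.28 and 11.44 without. ILS1 groups overlapped, and its log2 fold change of -0.09 was not called (95% interval -0.22 to 0.03).

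SLM5 (YCR024C), the asparagine enzyme of mitochondria, had 6.78, 6.74 and 6.61 with inhibitors, against 6.90, 6.87 and 6.93 without. Inhibitor replicate 3 was the lowest of the 6 arrays, and the groups did not overlap. SLM5 fell by 0.19 (SE 0.05, adjusted p = 0.0312 in limma), which was not called without inhibitor replicate 2 (adjusted p = 0.0671) and without no-inhibitor replicate 1, 2 or 3 (0.0833, 0.0633 and 0.0917). DED81, its cytosolic counterpart, had 10.88, 11.02 and 10.90 with inhibitors, against 10.93, 10.87 and 10.95 without. The DED81 values interleaved, and the log2 fold change was 0.02 (95% interval -0.10 to 0.14), with a negative sign without inhibitor replicate 2 (-0.03) or no-inhibitor replicate 2 (-0.01).

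MST1 (YKL194C), the mitochondrial threonine enzyme, had 5.59, 5.61 and 5.49 with inhibitors, against 5.83, 5.74 and 5.67 without. It fell by 0.18 (SE 0.05, adjusted p = 0.0463 in limma) with no overlap between the groups. The MST1 call was lost without inhibitor replicate 1, 2 or 3 (adjusted p = 0.0812, 0.0702 and 0.115) and without no-inhibitor replicate 1 or 2 (0.106 for each). Cytosolic THS1 had 11.36, 11.42 and 11.35 with inhibitors, against 11.36, 11.32 and 11.32 without, a log2 fold change of 0.04 (95% interval -0.02 to 0.11) with overlapping groups.

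NAM2 (YLR382C) charges leucine in mitochondria and also takes part in splicing introns of mitochondrial transcripts. Its signals were 6.33, 6.32 and 6.24 with inhibitors, against 6.45, 6.39 and 6.54 without, with no overlap. NAM2 fell by 0.16 (log2; SE 0.05, adjusted p = 0.0395 in limma). The call was lost without inhibitor replicate 1, 2 or 3 (adjusted p = 0.0644, 0.0776 and 0.106) and without no-inhibitor replicate 1 or 3 (0.0912 and 0.078). The cytosolic leucine enzyme gene CDC60 had 10.33, 10.38 and 10.36 with inhibitors, against 10.29, 10.20 and 10.31 without. All 3 CDC60 inhibitor values were above the others, by 0.018 at the nearest arrays, and the log2 fold change of 0.09 was not called (95% interval 0.00 to 0.18, adjusted p = 0.0955 in limma).

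The other 7 mitochondrial genes were not called. Of these, MSE1 for glutamate, MSM1 for methionine and MSR1 for arginine had groups that did not overlap, with log2 fold changes of -0.08, -0.08 and -0.10. Their nearest arrays were apart by only 0.003, 0.019 and 0.009. In total 9 of 13 mitochondrial genes had all inhibitor arrays below all others and 0 had them above, where over all genes 29.3% lay below and 26.1% above, together 55.4%. MSD1 for aspartate (-0.06, 95% interval -0.20 to 0.09) and MSY1 for tyrosine (-0.06, 95% interval -0.26 to 0.13) overlapped between groups. MSD1 was called lower without no-inhibitor replicate 2 (log2 fold change -0.12, adjusted p = 0.0381). DIA4, the seryl enzyme gene, and MSW1, the tryptophanyl enzyme gene, had positive log2 fold changes of 0.13 (95% interval -0.08 to 0.34) and 0.16 (95% interval -0.04 to 0.37), neither of them called. Without no-inhibitor replicate 2 they were 0.044 for DIA4 and 0.099 for MSW1.

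**Figure D2:**
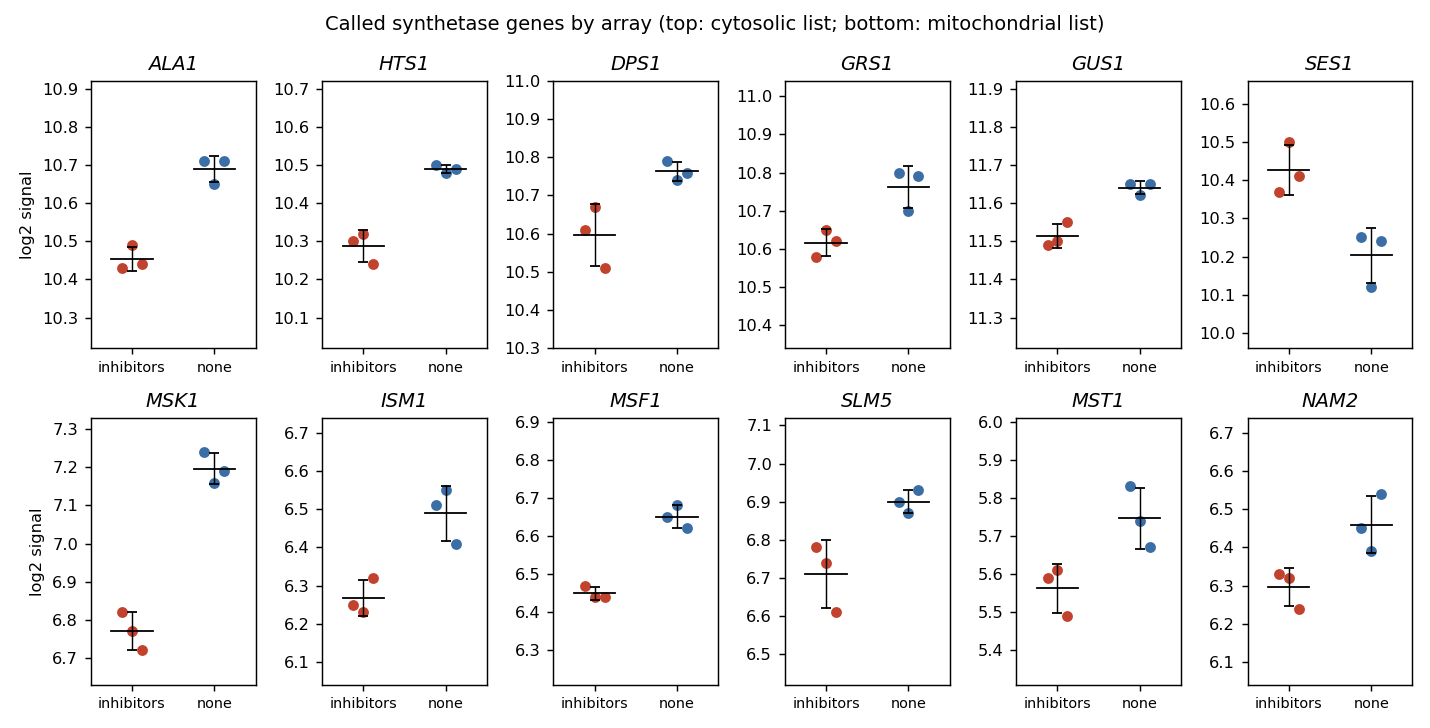
Log2 signal of the 12 called synthetase genes on each array, inhibitors left and no inhibitors right, with the mean and SD of each group (3 arrays) in black. Every panel spans the same log2 range; the groups do not overlap in any panel, SES1 is higher with inhibitors, and MSK1 shows the widest gap.

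Of the 4 genes listed as supplying both compartments, 3 fell (75.0%, against 22.3% of all genes lower), and the median log2 fold change of the 4 was -0.17. The cytosolic and mitochondrial forms of each of these enzymes differ at the amino end, so a single probe set reads the transcripts of both. ALA1 (YOR335C), for alanine, had 10.43, 10.49 and 10.44 with inhibitors, against 10.71, 10.65 and 10.71 without. The inhibitor values were lower on all arrays, and ALA1 fell by 0.23 (SE 0.03, adjusted p = 0.00281 in limma). HTS1 (YPR033C), for histidine, had 10.30, 10.32 and 10.24 with inhibitors, against 10.50, 10.48 and 10.49 without, and fell by 0.20 (SE 0.03, adjusted p = 0.00378 in limma).

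GRS1 (YBR121C), for glycine, had 10.58, 10.65 and 10.62 with inhibitors, against 10.80, 10.70 and 10.79 without. Its groups were apart by 0.057, less than the fall of 0.15 (SE 0.04, adjusted p = 0.0226 in limma). The GRS1 call was lost without inhibitor replicate 1 or 3 (adjusted p = 0.0577 and 0.0606) and without no-inhibitor replicate 1 or 3 (0.0689 and 0.0696). VAS1, for valine, had 10.38, 10.53 and 10.38 with inhibitors, against 10.45, 10.33 and 10.52 without. The VAS1 arrays interleaved, and its log2 fold change of -0.01 (95% interval -0.17 to 0.16, adjusted p = 0.956 in limma) took either sign among the alternatives.

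Among the 15 cytosolic genes other than ALA1, GRS1, HTS1 and VAS1, 2 fell and 1 rose (20% called, against 42.2% of all genes). Their median log2 fold change was 0.02, and GUS1 was counted among them. GUS1 (YGL245W) makes glutamyl-tRNA, and in yeast a share of its enzyme is held in the cytosol by the cofactor Arc1 together with the methionine enzyme Mes1, and a share enters mitochondria. GUS1 had 11.49, 11.50 and 11.55 with inhibitors, against 11.65, 11.62 and 11.65 without. The groups did not overlap, and GUS1 fell by 0.13 (SE 0.02, adjusted p = 0.00963 in limma). Under quantile normalization GUS1 was not called (log2 fold change -0.08, adjusted p = 0.0575). Mitochondrial MSE1 had 7.15, 7.20 and 7.07 with inhibitors, against 7.27, 7.21 and 7.20 without.

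DPS1 (YLL018C), for aspartate, had 10.61, 10.67 and 10.51 with inhibitors, against 10.79, 10.74 and 10.76 without. It fell by 0.16 (SE 0.05, adjusted p = 0.0348 in limma), with inhibitor replicate 3 the lowest array and no overlap. The DPS1 call was lost without inhibitor replicate 1 or 3 (adjusted p = 0.0737 and 0.0525) and without no-inhibitor replicate 1, 2 or 3 (0.101, 0.0686 and 0.0889). For the same amino acid, MSD1 had 7.32, 7.32 and 7.27 with inhibitors, against 7.43, 7.23 and 7.41 without, so no-inhibitor replicate 2 lay below every inhibitor array.

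SES1 (YDR023W), which charges serine, was the only one of the 32 synthetase genes that rose, although FRS2 and TYS1 were also called higher under quantile normalization. It had 10.37, 10.50 and 10.41 with inhibitors, against 10.25, 10.12 and 10.24 without. The groups did not overlap, and the log2 fold change was 0.22 (SE 0.05, adjusted p = 0.0217 in limma). This call was lost without inhibitor replicate 2 or 3 (adjusted p = 0.0572 and 0.0562). Its mitochondrial counterpart DIA4, named for a role in invasive growth, had 6.34, 6.32 and 6.20 with inhibitors, against 6.21, 5.99 and 6.27 without, with overlapping groups.

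The remaining 12 of the 15 cytosolic genes were not called, and most of their intervals were narrow. WRS1, the tryptophan enzyme gene, had 8.69, 8.58 and 8.71 with inhibitors, against 8.79, 8.75 and 8.82 without, a log2 fold change of -0.12 (95% interval -0.23 to -0.02, adjusted p = 0.0588 in limma) with no overlap. WRS1 was called under array weights (adjusted p = 0.0404), with arrays centred on their gene median (0.0477) and with a trended, robust variance (0.0463). TYS1 for tyrosine had a log2 fold change of 0.07 with no overlap (adjusted p = 0.106 in limma), and was called under quantile normalization (adjusted p = 0.0449).

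MES1 for methionine (0.05, 95% interval -0.05 to 0.16), YDR341C for arginine (0.03, -0.06 to 0.11) and GLN4 for glutamine (-0.03, -0.10 to 0.04) had overlapping groups. GLN4 has no mitochondrial counterpart, because mitochondria make glutaminyl-tRNA by an amidotransferase route. YDR341C took a negative sign without inhibitor replicate 2, and FRS1 without no-inhibitor replicate 2, at values that round to 0.00. Over the cytosolic list, 6 of 19 genes had every inhibitor array below every other and 4 had every inhibitor array above, against 29.3% and 26.1% of all genes. Among these 4, the nearest arrays of CDC60, FRS2 and TYS1 were apart by only 0.018, 0.014 and 0.012.

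**Figure D3:**
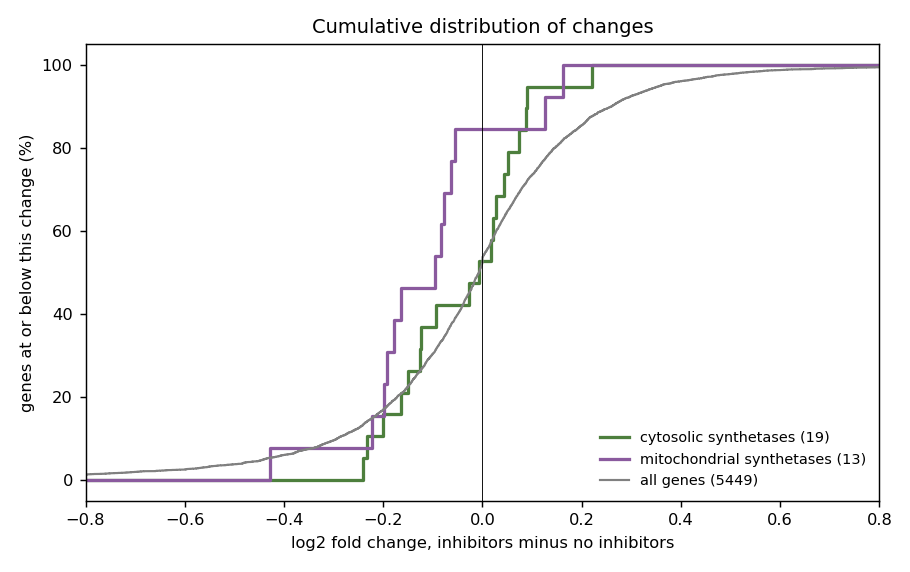
Cumulative share of genes (vertical axis, %) by log2 fold change (inhibitors minus no inhibitors) for the 19 cytosolic synthetases, the 13 mitochondrial synthetases and all 5449 genes. The mitochondrial curve lies to the left of the other curves over most of its length, and synthetase changes span -0.43 to 0.22, while those of all genes extend further on both sides.

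For 13 amino acids the cytosolic and mitochondrial enzymes have separate genes, which allows the changes of the genes to be compared within each array. The ratio of cytosolic to mitochondrial signal was higher with inhibitors for 10 of the 13 amino acids and lower for 3, with a median difference of 0.13 on the log2 scale. Each difference was tested by an exact two-sided permutation test over the 6 arrays, where 3 arrays against 3 cannot give a p below 0.1. After Benjamini-Hochberg adjustment over the 13 tests the lowest adjusted p was 0.217, so no single difference passed the test. The 13 ratios come from the same 6 arrays and are not independent.

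In 6 of the 13 the groups did not overlap, with 5 ratios higher and 1 lower. Among single genes over the whole table, 55.4% had groups that did not overlap, and no such share was computed for ratios. For leucine (CDC60 over NAM2) the ratio relative to its mean without inhibitors was 0.20, 0.25 and 0.31 with inhibitors, against 0.03, 0.00 and -0.03 without. The arrays with inhibitors lay apart from the rest, and the difference of 0.26 had an SE of 0.04 (exact permutation p = 0.1). For phenylalanine (mean of FRS1 and FRS2, over MSF1) it was 0.23, 0.29 and 0.24 with inhibitors, against 0.01, -0.06 and 0.04 without, a difference of 0.25 (SE 0.04, exact permutation p = 0.1).

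Threonine (THS1 over MST1) and asparagine (DED81 over SLM5) gave differences of 0.22 (SE 0.04) and 0.21 (SE 0.07), and methionine (MES1 over MSM1) gave 0.13 (SE 0.04). In these ratios the cytosolic gene was not called, and the mitochondrial gene was called lower for all but methionine. Lysine had a difference of 0.19 (SE 0.14, exact permutation p = 0.2), and inhibitor replicate 1, at -0.05, lay within the range of the arrays without inhibitors. The lysine difference was 0.306 without inhibitor replicate 1 and 0.112 without inhibitor replicate 2, and its cytosolic gene, KRS1, was dim.

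Tryptophan went the other way. WRS1 over MSW1 had relative values of -0.14, -0.47 and -0.25 with inhibitors, against -0.04, 0.10 and -0.06 without, a difference of -0.29 (SE 0.11, exact permutation p = 0.1) with no overlap. MSW1 itself had 6.50, 6.72 and 6.62 with inhibitors, against 6.49, 6.32 and 6.54 without, so its own groups overlapped. Aspartate and glutamate, where the cytosolic gene was called lower and the mitochondrial gene was not called, had differences of -0.11 (SE 0.06) and -0.04 (SE 0.05). No difference changed sign under quantile normalization or when any array was left out.

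**Figure D4:**
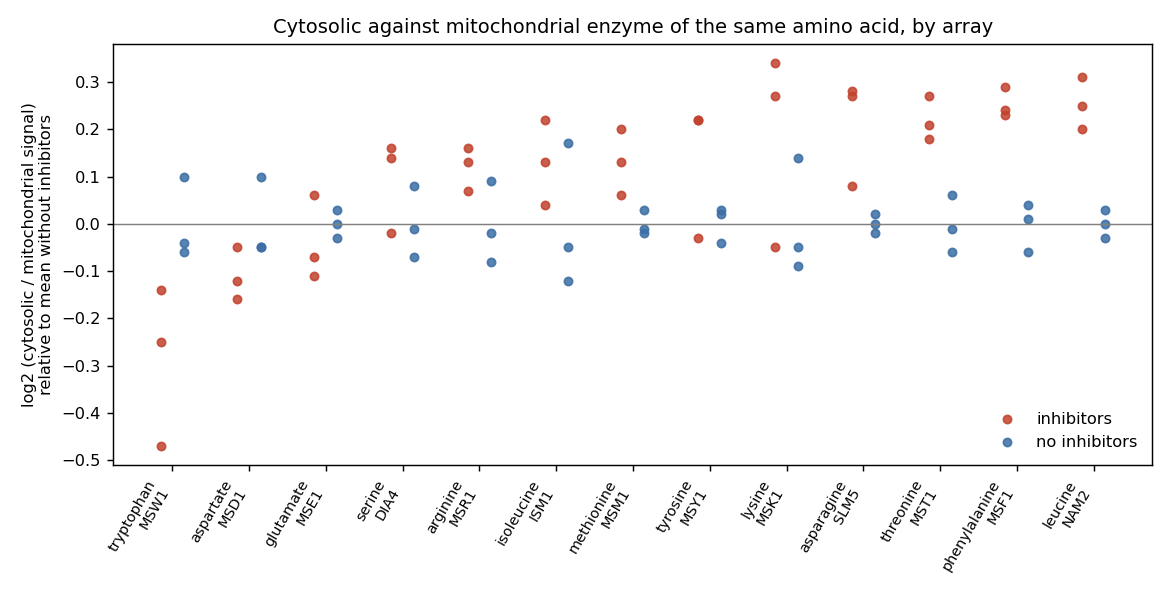
Log2 ratio of cytosolic to mitochondrial signal for 13 amino acids, set to a mean of 0 without inhibitors; each point is an array, inhibitors left and no inhibitors right within each amino acid, and the mitochondrial gene is named below it. Leucine, phenylalanine, threonine, asparagine and methionine have all inhibitor points above the others, and tryptophan has them below.

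The lists were also averaged over their genes on each array. The mean of the 13 mitochondrial genes, relative to their means without inhibitors, was -0.09, -0.10 and -0.16 with inhibitors, against 0.04, -0.04 and 0.00 without. These values did not overlap. The mean of the 19 cytosolic genes was -0.07, 0.01 and -0.06 with inhibitors, against 0.01, -0.05 and 0.03 without, and its groups overlapped. No-inhibitor replicate 2 was the lowest array of its group in both lists and also over all genes. The mean over all genes was -0.01, -0.02 and -0.03 with inhibitors, against 0.01, -0.01 and 0.00 without.

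Genes that work beside the synthetases were read from 5 further lists, and they did not move in a single direction. Of 8 measured relatives and charging cofactors, 1 fell and 0 rose (12.5% called, against 42.2% of all genes), with a median log2 fold change of -0.08. The gene that fell was PET112, whose product helps turn glutamyl-tRNA into glutaminyl-tRNA in mitochondria. PET112 had 5.55, 5.81 and 5.64 with inhibitors, against 6.02, 5.84 and 5.97 without, and fell by 0.28 (SE 0.08, adjusted p = 0.0413 in limma). The PET112 call was lost without inhibitor replicate 1 or 3 (adjusted p = 0.0937 and 0.113), without no-inhibitor replicate 1 or 3 (0.118 and 0.111) and under array weights (0.071). HER2 and GTF1 of the same list were not called, with log2 fold changes of -0.09 and -0.08 (adjusted p = 0.252 and 0.357 in limma) and overlapping groups. ARC1, the cofactor of Mes1 and Gus1, had a log2 fold change of -0.07 (95% interval -0.16 to 0.02). YHR020W, the cytosolic proline enzyme gene, had one of 0.02.

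Among 26 genes of tRNA maturation and export 8 rose and 2 fell (38.5% called, near the 42.2% of all genes), with a median of 0.09. TRM8, a subunit of a tRNA guanosine methyltransferase, had 7.43, 7.61 and 7.53 with inhibitors, against 7.15, 7.03 and 7.06 without. TRM8 rose by 0.44 (SE 0.06, adjusted p = 0.00352 in limma). MOD5, which adds an isopentenyl group beside the anticodon of cytosolic and mitochondrial tRNAs, had 6.91, 6.91 and 6.97 with inhibitors, against 6.47, 6.61 and 6.44 without, and rose by 0.42 (adjusted p = 0.00295 in limma). The inhibitor arrays of both genes were higher than all others. TRM82 was not called (log2 fold change 0.06, adjusted p = 0.425 in limma), and its groups overlapped. The tRNA methyltransferase genes TRM10 and TRM1 rose by 0.26 and 0.24 (adjusted p = 0.0265 and 0.00329 in limma). TRM10 lost its call without inhibitor replicate 2 or 3 (adjusted p = 0.0601 and 0.0501) and without no-inhibitor replicate 2 or 3 (0.0717 and 0.067). RPM2, a protein of mitochondrial RNase P, and TAD1, a tRNA adenosine deaminase, were the genes that fell, by 0.20 and 0.23; they were named after their values were seen.

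Of 9 mitochondrial translation factor genes 3 fell and 1 rose (44.4% called, near the 42.2% of all genes), with a median of -0.13. TUF1, which encodes the elongation factor that brings charged tRNAs to the mitochondrial ribosome, had 9.97, 9.97 and 9.81 with inhibitors, against 10.35, 10.17 and 10.32 without. These groups did not overlap, and TUF1 fell by 0.36 (SE 0.07, adjusted p = 0.0121 in limma). GUF1 and MEF2 fell by 0.16 and 0.13, and RRF1, the ribosome recycling factor gene, rose by 0.15 (adjusted p = 0.0414, 0.045 and 0.0326 in limma). The last 3 calls were weak. GUF1 was not called without inhibitor replicate 2 or 3 or no-inhibitor replicate 1, 2 or 3 (adjusted p = 0.0722 to 0.116). MEF2 was not called without inhibitor replicate 1, 2 or 3 or no-inhibitor replicate 1 or 3 (0.102 to 0.124), under array weights (0.0533), under quantile normalization (0.0518) or with a trended, robust variance (0.0516). RRF1 was not called without inhibitor replicate 1, 2 or 3 or no-inhibitor replicate 1 (0.0715 to 0.0929).

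Of 8 measured cytosolic elongation factor genes 1 rose and 2 fell (37.5% called, near the 42.2% of all genes), with a median of -0.07. CAM1, a subunit of the exchange factor for elongation factor 1A, which carries charged tRNAs to the cytosolic ribosome, had 9.51, 9.58 and 9.53 with inhibitors, against 9.94, 9.92 and 9.99 without. CAM1 fell by 0.41 (SE 0.03, adjusted p = 0.000848 in limma) with no overlap between the groups. EFB1, another subunit of the exchange factor, fell by 0.09 (adjusted p = 0.0258 in limma). EFB1 was not called without inhibitor replicate 1, 2 or 3 or no-inhibitor replicate 1 or 3 (adjusted p = 0.0561 to 0.0715), or when dim genes were left out (0.0533). TEF4, brighter than CAM1, had means of 11.94 with inhibitors and 11.96 without. TEF4 and TEF2 were not called, each with a log2 fold change of -0.03 (adjusted p = 0.562 and 0.295 in limma) and overlapping groups. ANB1, the eIF5A gene used without oxygen, rose by 0.67 (adjusted p = 0.00345 in limma), and it is nearly identical to HYP2, the eIF5A gene used with oxygen. HYP2 had 12.37, 12.51 and 12.45 with inhibitors, against 12.65, 12.52 and 12.60 without, a log2 fold change of -0.15 that was not called (adjusted p = 0.064 in limma). The probe sets of ANB1 and HYP2 gave different values, and whether either also reads the other gene was not tested.

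Uncharged tRNA activates the kinase Gcn2, which phosphorylates the initiation factor eIF2 and so raises translation of the activator Gcn4. Of 7 genes of this route 2 rose and 1 fell (42.9% called, near the 42.2% of all genes), with a median of -0.01. SUI2, which encodes the alpha subunit of eIF2, had 9.67, 9.79 and 9.73 with inhibitors, against 9.33, 9.36 and 9.34 without, and rose by 0.38 (SE 0.03, adjusted p = 0.00116 in limma). GCN3, a regulatory subunit of the exchange factor of eIF2, rose by 0.27 (adjusted p = 0.002 in limma). GCN4 had 13.04, 13.10 and 13.08 with inhibitors, against 13.24, 13.18 and 13.20 without, and fell by 0.13 (SE 0.03, adjusted p = 0.013 in limma). GCN4 is mainly controlled in translation, which the arrays do not read, and GCN2 had a log2 fold change of -0.09 that was not called.

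**Figure D5:**
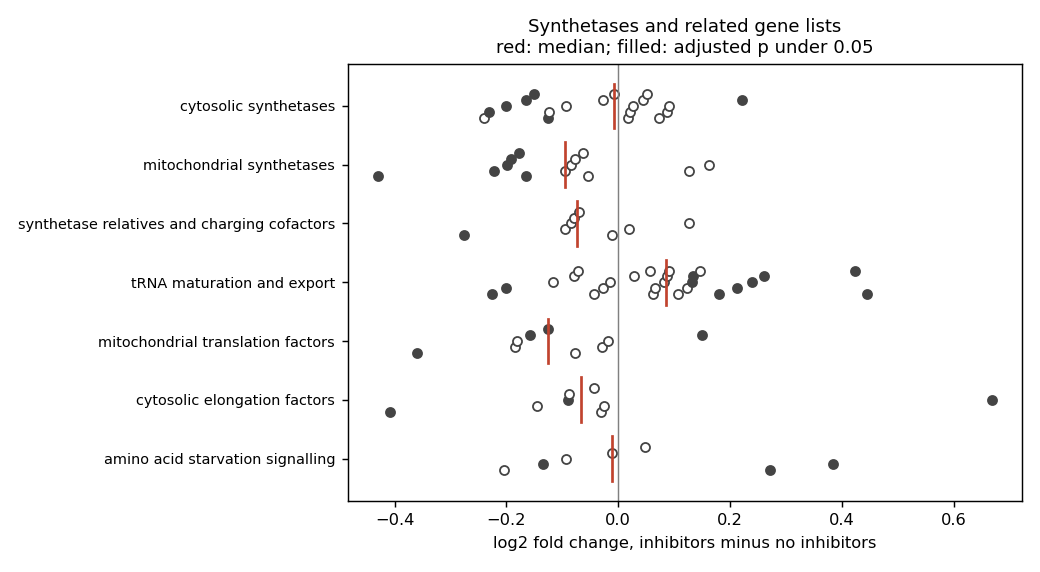
Log2 fold change (inhibitors minus no inhibitors) of each gene in the synthetase lists and the 5 related lists; filled points passed an adjusted p of 0.05 and red bars are list medians. Medians run from -0.13 for mitochondrial translation factors to 0.09 for tRNA maturation and export.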

How the data were processed

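The values were log2 signals deposited by the authors for 10762 probe sets on 6 arrays. The submitters' processing notes name GCRMA, a background correction and normalization method under which low signals gather at a floor, and limma; versions are not stated there. No genome build is named, so no coordinates are given. Of 7244 probe sets with 1 annotated gene, 5498 read S. cerevisiae genes and 1746 fission yeast genes; 1 set had several genes, and 3517 were unlisted and not used. Symbols were updated through the RefSeq table of assembly R64. The probe set with the highest mean stood for a gene. Background was the 95th percentile of the fission yeast sets on each array.

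Groups were compared in limma 3.58.1 (R 4.3.3), moderated and two-sided, over 5449 genes, checked on simulated data. Ratios of paired enzymes used exact permutation tests. Members and lists were chosen with earlier results of these data known. Array values are printed for called members, up to 20, and their counterparts, and up to 4 called genes of each other list, by size of change, are named; RPM2 and TAD1 were added after their values were seen. CRS1, TEF1 and EFT1 were not analysed here, and promoter motifs were not searched. The labels name no batch. Alternatives are listed in the closing section. Figures used matplotlib 3.10.9.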

Additional observations from a re-analysis of the deposited data

How the results depend on the processing

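The 14 refits covered normalization, centring, a filter on dim probe sets, array weights, the variance model, the replicate block, probe sets and leaving out each array; a stricter threshold was also applied. Of the 12 called synthetase genes, ALA1, HTS1, MSF1 and MSK1 (4 genes) stayed called in all 14, and 0 changed sign. Leaving out an array lost calls for 6 of the 12, the block for 6 (DPS1, GRS1, SES1, ISM1, NAM2 and SLM5, adjusted p = 0.0627 to 0.119 in limma). Of 20 uncalled genes, 4 gained a call under some setting (FRS2, TYS1, WRS1, MSD1). Among all genes, 608 were higher and 582 lower at an adjusted p under 0.01, with 0 cytosolic genes higher and 3 lower, and 2 mitochondrial genes lower. Quantile normalization called 3 cytosolic genes higher (SES1, FRS2, TYS1), and 1252 genes higher and 1125 lower over the table. Without a replicate, 0 to 1 cytosolic genes were called higher and 3 to 5 lower, and 3 to 5 mitochondrial genes lower. Over the table the same refits called 855 to 1023 genes higher and 868 to 1117 lower, against 1086 and 1214 with every array. Among the synthetases, signs turned only in uncalled genes: VAS1 was 0.037 under array weights, and without an array it ranged from -0.059 to 0.038, DED81 from -0.026 to 0.046, FRS1 from -0.001 to 0.043 and YDR341C from -0.003 to 0.044. With the replicate block 0 cytosolic genes were called higher and 3 lower, 3 mitochondrial genes lower, and 774 genes higher and 810 lower over the table. Same-numbered arrays did not deviate together (r of their deviations from the group means -0.22, -0.25 and -0.20). Arrays with different numbers had r of 0.046 to 0.176. Deviations within a group of 3 arrays sum to 0, which ties these values together, so they cannot show whether the numbers pair the samples. In the block the ratios of paired enzymes had sign-flip p of 0.25 or more, the smallest possible. Over the refits the median log2 fold change ran from -0.048 to 0.035 in the cytosolic list and from -0.137 to -0.076 in the mitochondrial list.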

Other observations

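Synthetases fall into 2 unrelated structural classes, and a split by class was looked at after the values had been seen. Of 16 class II genes 8 fell and 1 rose (56.2% called, median log2 fold change -0.16), among them ALA1, GRS1, HTS1 and DPS1 in the cytosol and MSK1, MSF1, MST1 and SLM5 in mitochondria. Of 16 class I genes 3 fell, GUS1, ISM1 and NAM2, and 0 rose (18.8% called, median -0.07). Over all genes 42.2% were called. In the cytosolic list 5 of 10 class II genes and 1 of 9 class I genes were called, and in the mitochondrial list 4 of 6 and 2 of 7. The difference between the classes was not tested.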
